A study of Caenorhabditis elegans with 2 samples.

Results

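C-type lectin genes of the *clec* family were examined in 2 RNA-seq libraries of whole *C. elegans*. Members were taken as the genes whose deposited symbol is *clec-* followed by a number, and this gave 211 of the 18510 genes in the table. The AbaPep#07 library came from wild-type N2 nematodes given 2 mM AbaPep#07, a peptide from an abalone protein hydrolysate, from the L4 larval stage. The Control library came from untreated N2 nematodes. Both cultures were kept in liquid S medium at 20 °C with *E. coli* NA22 as food and were collected at Day 10 of adulthood. The paper's liquid cultures for Day 10 assays also held FUDR and ampicillin. Its RNA sequencing methods do not say whether the cultures used here did. There was 1 library per condition, so no difference below has a replicate check in these sequencing data. Differences between cultures cannot be told apart from those of the peptide. Estimated reads summed to 19241145 in the AbaPep#07 library and to 19409907 in the Control library.

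C-type lectins share a disulfide-bonded fold that in many animal proteins binds sugars, some of them with the help of calcium. Nematodes carry a large and diverse set of these genes. Many encode secreted proteins made in the intestine, and many change in abundance when the animals meet bacterial pathogens, with a different subset for each pathogen. Most single members have no assigned function, and a lectin fold alone does not show that a protein binds sugar. The symbol was checked against the deposited domain annotation, where 205 of the 211 genes carried the lectin fold and 6 did not. In 198 of them the deposited functional terms included carbohydrate binding.

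In the AbaPep#07 library 11 *clec* genes were called higher and 2 were called lower than in Control. They are *clec-43*, *clec-72*, *clec-70*, *clec-67*, *clec-265*, *clec-174*, *clec-85*, *clec-48*, *clec-41*, *clec-266* and *clec-203* on the higher side, and *clec-230* and *clec-151* on the lower side. A call needed a false discovery rate (FDR) of 0.05 or less in the Audic-Claverie test of the 2 read counts and a ratio of FPKM values of at least 2 or at most 0.5. FPKM divides the fragments of a gene by its transcript length and by the size of the library, and 0.01 stood in for an FPKM of 0. The members called higher were 5.21% of the family, beside 2.10% of all genes, and those called lower were 0.948%, beside 1.43% of all genes. By the FDR alone, 36 members (17.1%) were higher and 11 (5.21%) lower, beside 13.1% and 12.4% of all genes. The test assumes that counts vary by sampling alone and therefore compares the 2 libraries, not the conditions. When a coefficient of variation of 0.2 between cultures was assumed, edgeR's exact test with the same fold threshold called 5 members higher (2.37%), beside 0.270% of all genes, and 0 lower, beside 0.216%. Those 5 were *clec-43*, *clec-67*, *clec-72*, *clec-85* and *clec-265*.

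**Figure D1:**
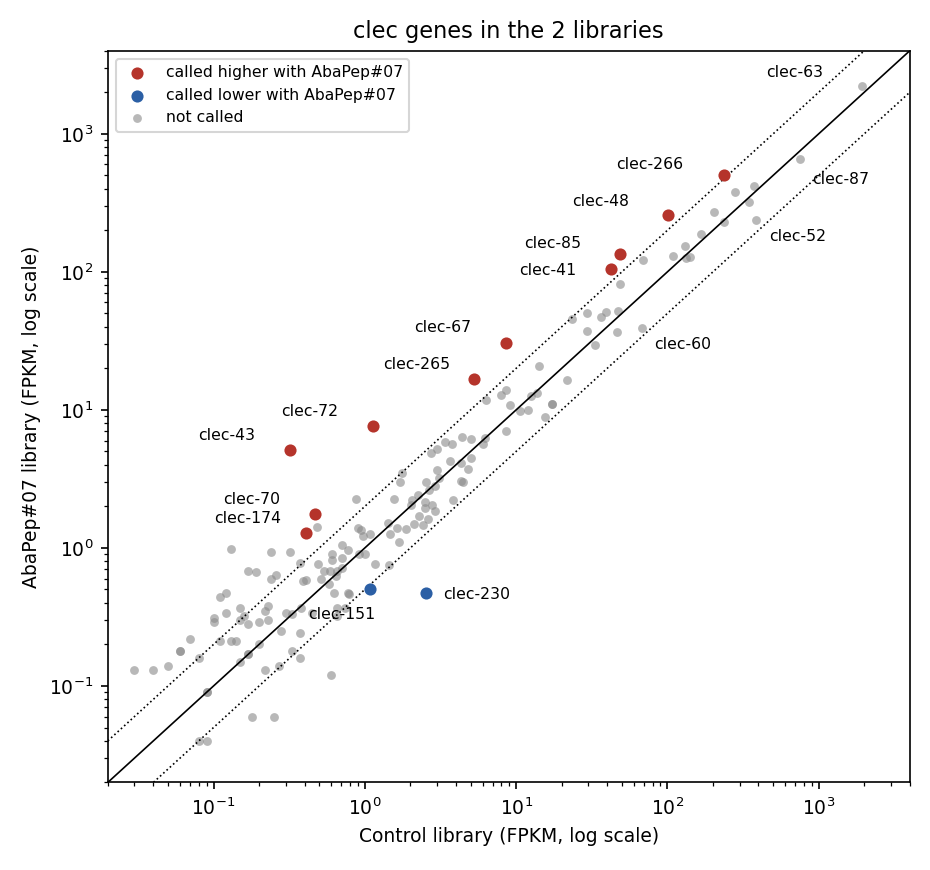
FPKM of each *clec* gene with a value above 0 in both libraries, Control on the x axis and AbaPep#07 on the y axis, both on log scales, with the line of equality and dotted lines at ratios of 2 and 0.5. The called genes other than *clec-203*, which had 0 Control reads, stand outside the dotted lines, and the most abundant member, *clec-63*, lies near equality with 2232.36 FPKM in the AbaPep#07 library and 1941.27 FPKM in Control.

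Among members with reads in both libraries that were called, the widest difference was that of *clec-43*, a gene with a lectin fold and CUB domains (chromosome II, 944066 to 946157). It had 144 reads in the AbaPep#07 library and 9 in Control, or 5.12 and 0.32 FPKM. The ratio of reads scaled by the library totals was 16.1, with an exact 95% counting interval of 8.27 to 36.0 and an FDR of 2.7e-31 in the Audic-Claverie test. These intervals cover counting error only, and PCR copies were not told apart. The next widest was that of *clec-72* (chromosome IV, 3944816 to 3947362), which had 176 reads in the AbaPep#07 library and 26 in Control, a read ratio of 6.83 (4.51 to 10.7). Its level was 7.63 FPKM with the peptide and 1.13 FPKM in Control.

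Of intermediate abundance were *clec-67* and *clec-265*. *clec-67* is known as a target of the p38 immune pathway, and it had 785 reads in the AbaPep#07 library and 218 in Control. This gave 30.77 FPKM with the peptide, 8.54 FPKM in Control and a read ratio of 3.63 (3.12 to 4.24). *clec-265*, on the X chromosome, had 260 reads in the AbaPep#07 library and 82 in Control. Its levels were 16.75 FPKM and 5.30 FPKM, with a read ratio of 3.20 (2.49 to 4.15). For both genes the whole counting interval lay above a ratio of 2. The paper reports *clec-265* as increased by the peptide in quantitative PCR of repeated experiments, which were not analysed here.

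The 4 most abundant members among those called higher were *clec-266*, *clec-48*, *clec-85* and *clec-41*, all above 40 FPKM in Control. *clec-266* (chromosome X, 6617393 to 6622915) had 5836 reads in the AbaPep#07 library and 2728 in Control, or 504.68 and 237.82 FPKM. Its read ratio of 2.16 (2.06 to 2.26) stood close to the fold threshold. *clec-48* (chromosome V, 18157878 to 18159614) had 4381 reads in the AbaPep#07 library and 1689 in Control. Its FPKM was 259.95 with the peptide and 100.53 in Control, a read ratio of 2.62 (2.47 to 2.77). *clec-266* ranked 3rd among members by FPKM in the AbaPep#07 library and 7th in Control, and *clec-48* ranked 8th with the peptide and 15th in Control.

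*clec-41*, which with *clec-4* and *clec-42* has been studied in infection with *Bacillus thuringiensis*, had 4915.82 estimated reads in the AbaPep#07 library and 1991.92 in Control. Its FPKM was 104.84 with the peptide and 42.29 in Control, a read ratio of 2.49 (2.36 to 2.62). The other members of this trio were not called, with 90 and 87 reads for *clec-42* and 15 and 13 reads for *clec-4* in the AbaPep#07 and Control libraries. *clec-85*, a commonly measured target of the p38 pathway, had 974.99 reads in the AbaPep#07 library and 236 in Control. Here the scale mattered, since the read ratio was 4.17 (3.61 to 4.82) while the FPKM ratio was 2.79, with 135.15 FPKM with the peptide and 48.37 FPKM in Control. The gene has 2 annotated coding transcripts, and RSEM estimates the length used for FPKM in each library. Among members with at least 20 reads over both libraries only 3, *clec-85*, *clec-51* and *clec-205*, differed by more than 1.1-fold in either direction between the 2 ratios.

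**Figure D2:**
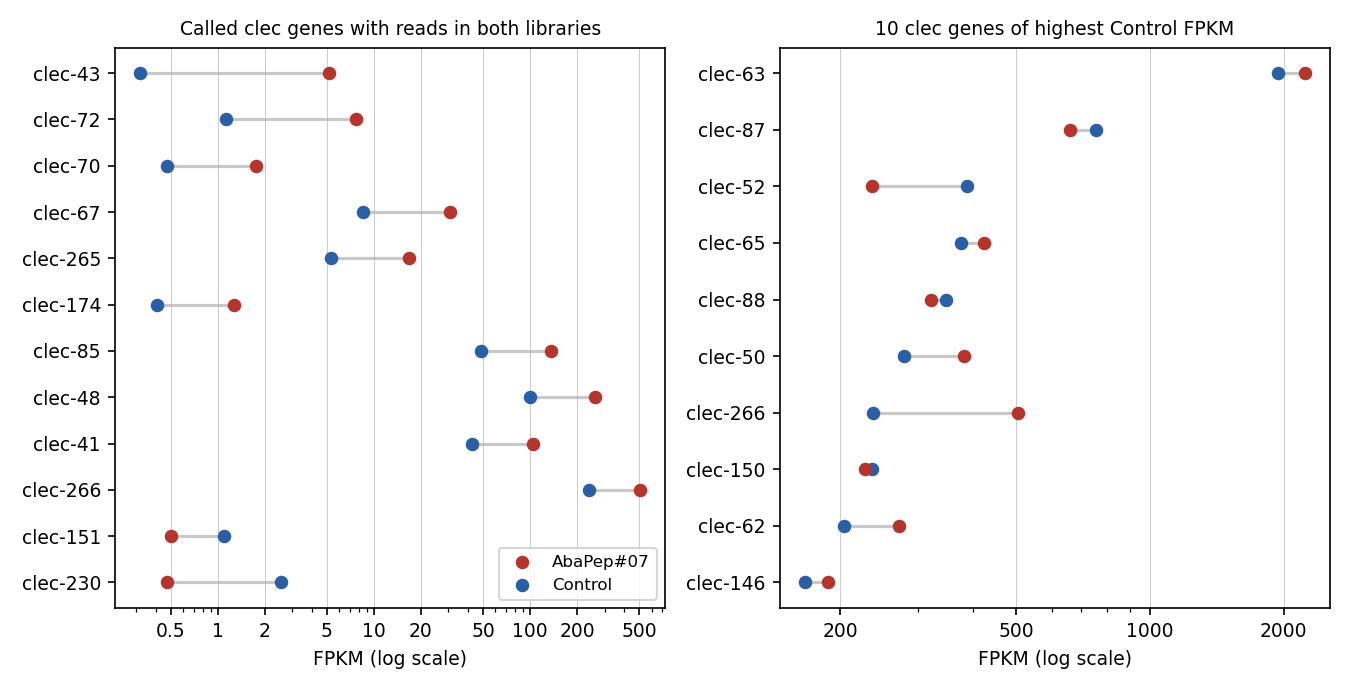
FPKM in the AbaPep#07 library (red) and the Control library (blue), 1 library each, on log scales, for the called *clec* genes with reads in both libraries (left) and for the 10 *clec* genes of highest Control FPKM (right). On the left the pairs reach across levels, with 5.12 and 0.32 FPKM for *clec-43* and 504.68 and 237.82 FPKM for *clec-266*, while on the right *clec-266* has the widest gap and *clec-52* is the clearest case of a lower AbaPep#07 value.

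The remaining calls rested on few reads. *clec-70* had 41 reads in the AbaPep#07 library and 11 in Control, a read ratio of 3.76 (1.90 to 8.11), and *clec-174* had 28 and 9 reads, a read ratio of 3.14 (1.44 to 7.56). *clec-203* had 7 reads in the AbaPep#07 library and 0 in Control, where a count of 0 allows up to 3 reads, so its scaled level was at least 2.35-fold higher with the peptide if the 7 reads are taken as exact. With the counting error of both libraries the 95% interval starts at 1.45. On the lower side *clec-230* had 3 reads in the AbaPep#07 library and 16 in Control, a read ratio of 0.189 (0.0353 to 0.661) with an FDR of 0.014 in the Audic-Claverie test. *clec-151* had 14.94 estimated reads with the peptide and 33 in Control, a read ratio of 0.457 (0.231 to 0.868). Its counts were not whole because reads were divided with its neighbour *clec-153*, which had 20.06 reads in the AbaPep#07 library and 16 in Control. Together the pair had 35 reads with the peptide and 49 in Control, a read ratio of 0.721 (0.453 to 1.13) whose interval includes 1. Neither lower call had an interval wholly below 0.5, whereas 8 members had one wholly above 2. The like count over all genes is not given here.

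The threshold divided members of close values. Just inside on the higher side stood *clec-266* at an FPKM ratio of 2.12, and just outside stood *clec-205* at 1.99 and *clec-80* at 1.95. *clec-80* had 777.95 reads in the AbaPep#07 library and 370 in Control, and its read ratio of 2.12 (1.87 to 2.41) was above 2. With at least 20 reads over both libraries, 4 more members passed the fold threshold but not the FDR. *clec-125* had 27 reads with the peptide and 13 in Control, *clec-161* had 15 and 5, *clec-197* had 21 and 8, and *clec-31* had 7 and 14.

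**Figure D3:**
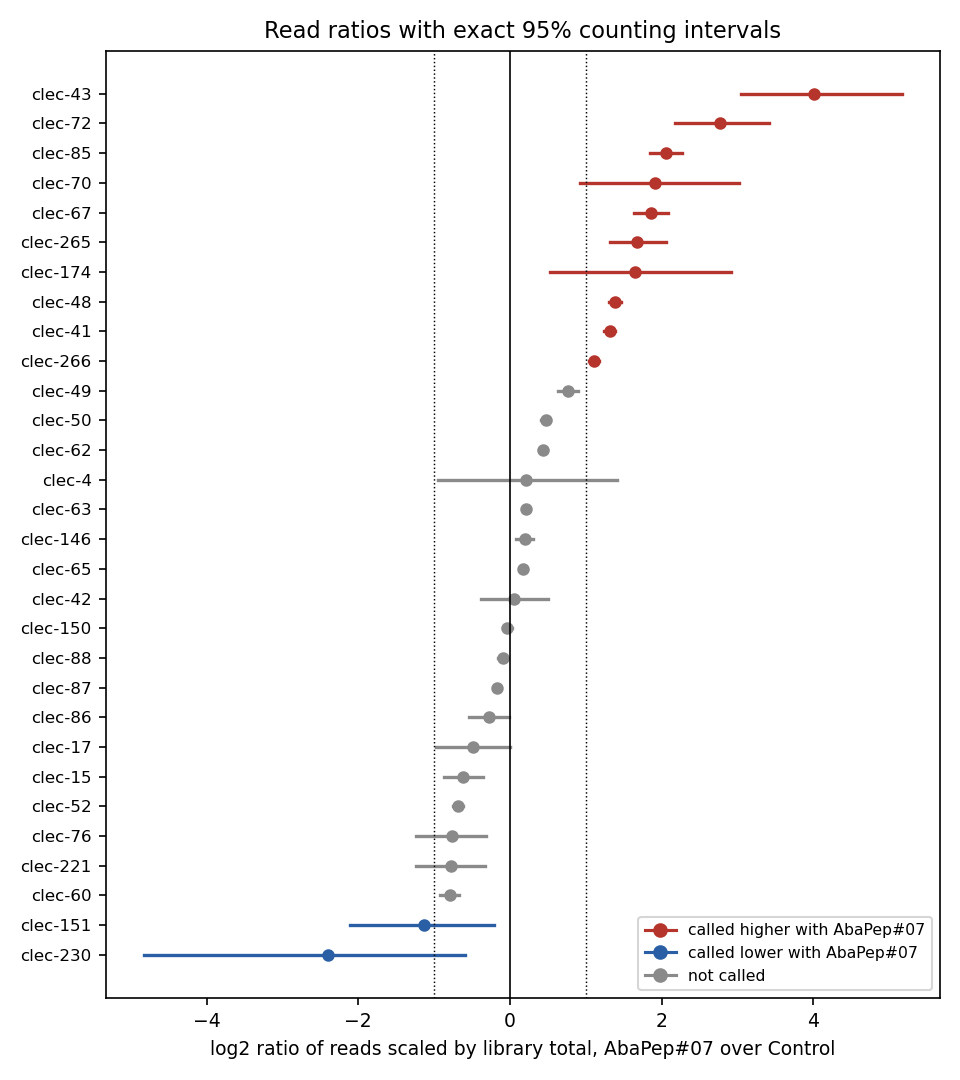
Ratio of reads scaled by library total, AbaPep#07 over Control, on a log2 axis with exact 95% counting intervals, for the named *clec* genes with reads in both libraries, and dotted lines at log2 values of 1 and -1. Intervals are wide for *clec-174*, *clec-70* and *clec-230*, which have few reads, and narrow for *clec-266* and *clec-63*, and *clec-60*, *clec-76*, *clec-221*, *clec-52* and *clec-15* lie below 0 without being called.

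The family as a whole was weakly expressed, and its abundance was concentrated in few members. The median FPKM was 0.76 in the AbaPep#07 library and 0.64 in Control, beside 7.08 and 6.73 over all genes. A level of at least 1 FPKM was reached by 94 members with the peptide and 90 in Control, and at least 10 FPKM by 40 and 37 members. Fewer than 20 reads over both libraries were found for 102 members (48.3%), beside 23.7% of all genes. In Control 24 members had 0 reads, and these had 53 reads together and at most 7 each in the AbaPep#07 library. The converse group of 15 members with 0 reads in the AbaPep#07 library had 26 Control reads together and at most 5 each. Against 0 reads at least 7 were needed to pass the test, a count that only *clec-203* reached, so a change of the others was not detectable at this depth.

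Most of the abundant members differed little between the libraries. By the FDR alone 23.8% of all genes at 100 FPKM or more in Control were higher and 36.9% lower. Of the 10 members with the highest Control FPKM, all in that class, 6 were higher and 3 lower by the same measure. Yet *clec-266* was the only one of them past the fold threshold. The highest was *clec-63*, with a lectin fold and a von Willebrand factor A domain (chromosome II, 12895638 to 12897446), at 2232.36 FPKM in the AbaPep#07 library and 1941.27 FPKM in Control. It alone made up 29.8% of the summed *clec* TPM with the peptide and 30.1% in Control. *clec-87* followed with 659.27 FPKM in the AbaPep#07 library and 753.71 FPKM in Control, and *clec-65* had 421.67 and 375.78 FPKM. *clec-88*, *clec-150* and *clec-146* were also near equality, with log2 FPKM ratios of -0.11, -0.05 and 0.17. *clec-50* and *clec-62* were somewhat higher with the peptide, at 380.78 and 272.33 FPKM, against 278.62 and 203.86 FPKM in Control.

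The abundant member with the lowest ratio was *clec-52*, and *clec-87* and *clec-88* were the other abundant members lower by the FDR alone. *clec-52* (chromosome IV, 8167164 to 8168760) had 3376 reads in the AbaPep#07 library and 5482 in Control, a read ratio of 0.621 (0.595 to 0.649). Its FPKM was 236.50 with the peptide and 386.04 in Control, and it ranked 9th among members with the peptide and 3rd in Control. Its neighbour *clec-51*, of the same length of 308 residues, had 12.60 FPKM in the AbaPep#07 library and 12.48 FPKM in Control.

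Summed over all members, TPM (a length-scaled share of all transcripts in the library) was 6448.36 in the AbaPep#07 library and 5335.69 in Control, a ratio of 1.21. The family thus took 0.645% of TPM with the peptide and 0.534% in Control. Without *clec-63* the ratio was again 1.21, and without the 13 called members it was 1.11. The 10 members of highest Control FPKM had a summed TPM ratio of 1.15 and the other 201 had 1.39. This split was made on the Control value, which also enters the ratio. Over all genes the summed TPM ratio was likewise 1.48 under 1 Control FPKM and 0.982 at 100 or more. Over the 109 members with at least 20 reads, the median log2 FPKM ratio was 0.17, beside -0.03 over the 14119 genes of the same depth. Of these members 63 lay above 0 and 45 below, with a range of -1.12 to 4.0, and 94 had FPKM ratios between 0.5 and 2. Without the called members the median was 0.07. Called members were picked by their own ratio, and 11 of the 13 were higher. Both this median and the summed ratio of 1.11 therefore fall by construction.

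By Control abundance, calls were found at every level. Among 97 members above 0 and under 1 FPKM in Control, 3 were called higher and 0 lower, a share of 3.09% beside 3.9% of all genes in that class. Of the 24 members at 0 in Control 1 was called (4.17%), beside 2.39% of all such genes. Among 53 members at 1 to 10 FPKM, 3 were called higher and 2 lower, and the median log2 FPKM ratio was 0.01, beside 0.02 for all genes of that class. In the 22 members at 10 to 100 FPKM, 2 were higher, with a median of 0.08 beside -0.05, and in the 15 members at 100 FPKM or more, 2 were higher, with a median of 0.17 beside -0.08. The share called in either direction was 9.43%, 9.09% and 13.3% in the 3 upper classes, beside 6.14%, 1.94% and 1.32% of all genes in them. Because the Control value also enters the ratio, low classes lean upward by construction, and all genes under 1 FPKM had a median of 0.26 beside 0.43 for the members. With classes set by the mean of both libraries instead, the medians of the members were 0.20, 0.04, 0.33 and 0.17, beside 0.00, 0.02, -0.05 and -0.06 for all genes.

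Several members known from infection work were not called. *clec-60*, a gene induced by Gram-positive pathogens in *C. elegans*, had 890 reads in the AbaPep#07 library and 1557 in Control, a read ratio of 0.577 (0.530 to 0.627). Its level was 38.91 FPKM with the peptide and 68.06 FPKM in Control, so it lay below Control without reaching the fold threshold. *clec-86*, induced by some of the same pathogens, had 223 reads with the peptide and 272 in Control. Its read ratio was 0.827 (0.69 to 0.991), with an FDR of 0.11 in the Audic-Claverie test. *clec-17* had 61 and 86 reads. *clec-49*, whose product has been tied to defence against *Serratia marcescens*, had 1216 reads in the AbaPep#07 library and 723 in Control, a read ratio of 1.70 (1.55 to 1.86). Members known from infection work thus stood on both sides. *clec-41*, *clec-67* and *clec-85* were called higher. Of those not called, *clec-49* had its interval above 1, and *clec-60* and *clec-86* had theirs below 1.

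Other members with intervals below 1 were *clec-221*, with 67 reads in the AbaPep#07 library and 116 in Control, and *clec-76*, with 64 and 110 reads. *clec-13* and *clec-15*, neighbours on chromosome I, had identical values of 204.5 estimated reads each with the peptide and 316 each in Control. Together they had 409 reads in the AbaPep#07 library and 632 in Control, a read ratio of 0.653 (0.575 to 0.740), and they are in effect 1 measurement. Over all members with at least 20 reads, these included singly, the interval lay above 1 for 40 and below 1 for 14. These intervals are not adjusted for the number of genes, and the like count over all genes is not given here. By the adjusted FDR alone 17.1% of the members were higher and 5.21% lower, beside 13.1% and 12.4% of all genes.

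The domains beside the lectin fold divided the family into classes of unequal abundance. The lectin fold without a CUB, von Willebrand factor A or PAN domain was found in 145 members, of which 9 were called higher and 2 lower. CUB domains, found in many secreted and matrix proteins, were annotated in 28 members, of which *clec-41* and *clec-43* were called higher. A von Willebrand factor A domain, a module of adhesion proteins, was annotated in 14 members, of which 0 were called. By the FDR alone 4 of these 14 were higher (28.6%) and 1 was lower (7.14%), beside 13.1% and 12.4% of all genes. The shares called in the 3 classes were 7.59%, 7.14% and 0%, beside 6.16% of the family and 3.53% of all genes. This last class nevertheless had a summed TPM of 2728.05 in the AbaPep#07 library and 2300.9 in Control, most of it from *clec-63*. The medians of the 3 classes were 0.21, 0.10 and 0.20 over 75, 22 and 9 members with at least 20 reads, so they differed little beside the range within each.

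PAN-3 domains were annotated in 20 members, which were hardly expressed, with 58 reads together in the AbaPep#07 library and 50.49 in Control. Only 1 of them had at least 20 reads over both libraries. Of the 6 members without an annotated lectin fold, 4 had no CUB, von Willebrand factor A or PAN-3 domain. The others were counted in the classes of those domains. The annotation also marks a conserved site of the C-type lectin fold in 28 members. Of these 0 were called, beside 6.16% of the family and 3.53% of all genes. By the FDR alone 2 of them were higher (7.14%), beside 13.1% of all genes. The only ones lower were *clec-13* and *clec-15*, which have identical values (7.14%, beside 12.4%). The median log2 FPKM ratio of the marked members was -0.04 over 18 genes and 0.00 with that pair counted once. The 183 members without the mark held all 13 calls (7.1%) and had a median of 0.18 over 91 genes. At the family's share only few of 28 members would be called, and no test of the difference was made.

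**Figure D4:**
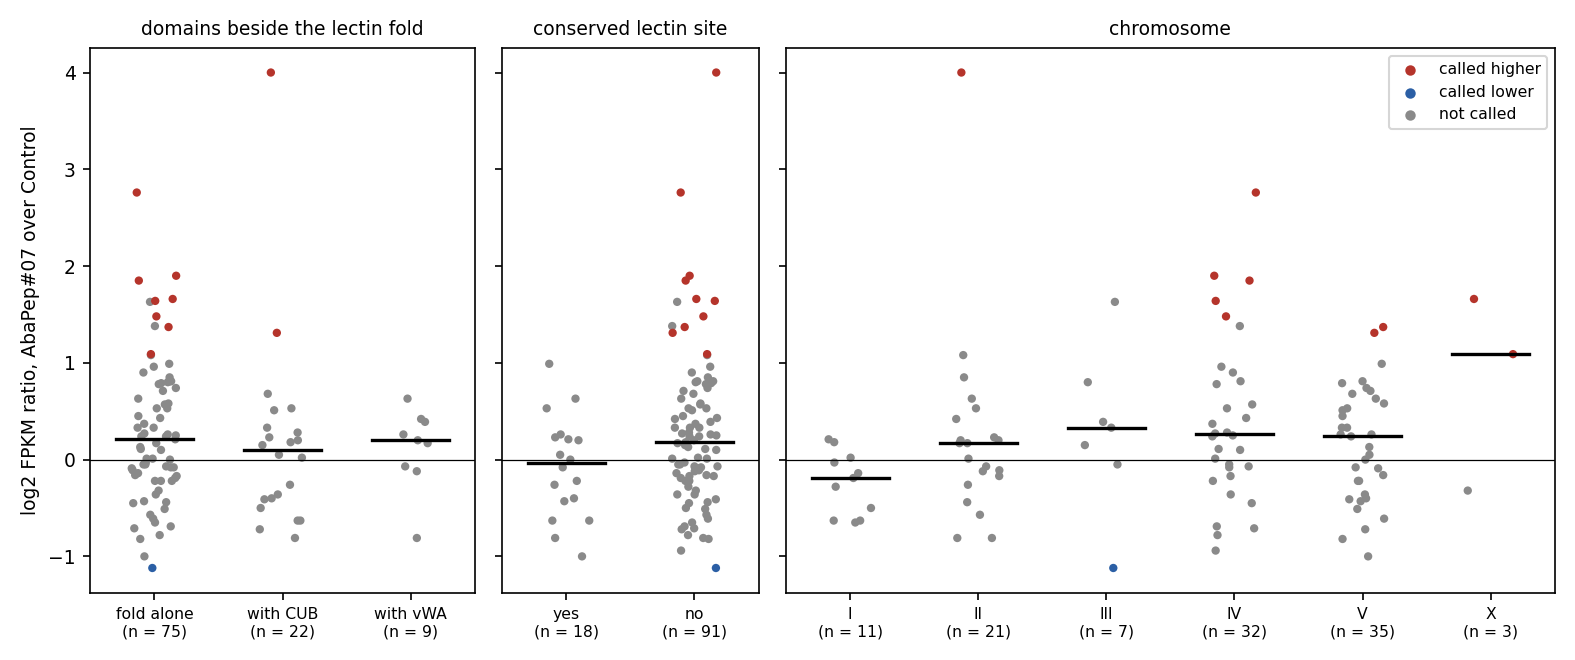
Log2 FPKM ratio, AbaPep#07 over Control, of the *clec* genes with at least 20 reads over both libraries, each point 1 gene and each bar the median, by the domains beside the lectin fold (CUB, or von Willebrand factor A, vWA), by the conserved lectin site and by chromosome. Every gene has a point of its own, *clec-13* and *clec-15* with identical values included, so the medians drawn are -0.04 for genes with the conserved site and -0.19 for those on chromosome I, and the points far above 0 belong to single genes.

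Along the chromosomes, members lay mostly on IV and V, and many stood in tandem. Chromosome V held 73 members, of which 4.11% were called higher and 1.37% lower, beside 2.63% and 1.95% of all genes there. Chromosome IV held 49 members, of which 10.2% were called higher and 0 lower, beside 2.37% and 1.58% of all genes there. On chromosome I, 0 of 31 members were called, where 1.5% of all genes were called higher and 1.21% lower. With *clec-13* and *clec-15* counted once, 7 of its 10 members with at least 20 reads lay below 0, with a median of -0.17 beside -0.06 for all genes of the chromosome. By the FDR alone 2 of these 30 members were lower (6.67%) and 0 higher, beside 16.9% and 10.8% of all genes there. Chromosome II had 1 higher of 43 (2.33%, beside 2.17%). Chromosome III had 1 lower of 12 (8.33%, beside 0.827%), the single gene *clec-151*, whose reads were divided with those of *clec-153*. On X the 3 members were *clec-265* and *clec-266*, called higher, and *clec-86*, where 1.91% of all genes were called higher. Neighbouring members whose ends lay within 10000 bases formed 38 tandem groups with 125 members, and the largest had 13. That largest group, on chromosome V, held 0 called members. By the FDR alone 1 was higher (7.69%), beside 11.9% of all genes of the chromosome. Of the group's 9 members with at least 20 reads 2 lay above 0 and 6 below, with a median of -0.22.

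Of the 11 members called higher, 4 stood in 1 tandem group of 11 on chromosome IV, whose gene starts run between 3922165 for *clec-67* and 3973349 for *clec-79*. These were *clec-67*, *clec-70*, *clec-174* and *clec-72*. Among their neighbours *clec-73* had 24 reads in the AbaPep#07 library and 18 in Control, *clec-75* had 17.7 and 12.48, and *clec-79* had 16 and 17. *clec-68*, *clec-71* and *clec-74* had at most 8 reads in either library. *clec-76* lay on the other side, with 64 reads in the AbaPep#07 library and 110 in Control, a read ratio of 0.587 (0.424 to 0.806). Its annotated product has 469 residues in 9 exons, close to the 467 residues and 9 exons of *clec-67* and the 466 residues and 9 exons of *clec-72*. Genes of like structure within the group thus had ratios on both sides of 1. Sequence identity was not compared.

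A group of 5 on the same chromosome, with gene starts between 2823746 and 2850886, held *clec-85* with *clec-80*, *clec-82*, *clec-83* and *clec-84*. Apart from *clec-85* and *clec-80*, given above, *clec-84* had 2010.11 reads in the AbaPep#07 library and 1365.02 in Control, and *clec-83* had 1891 and 1582. *clec-82* had 763 reads with the peptide and 857 in Control. Ratios therefore differed along this group too, and those of *clec-80*, *clec-84* and *clec-85* rest in part on divided reads.

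**Figure D5:**
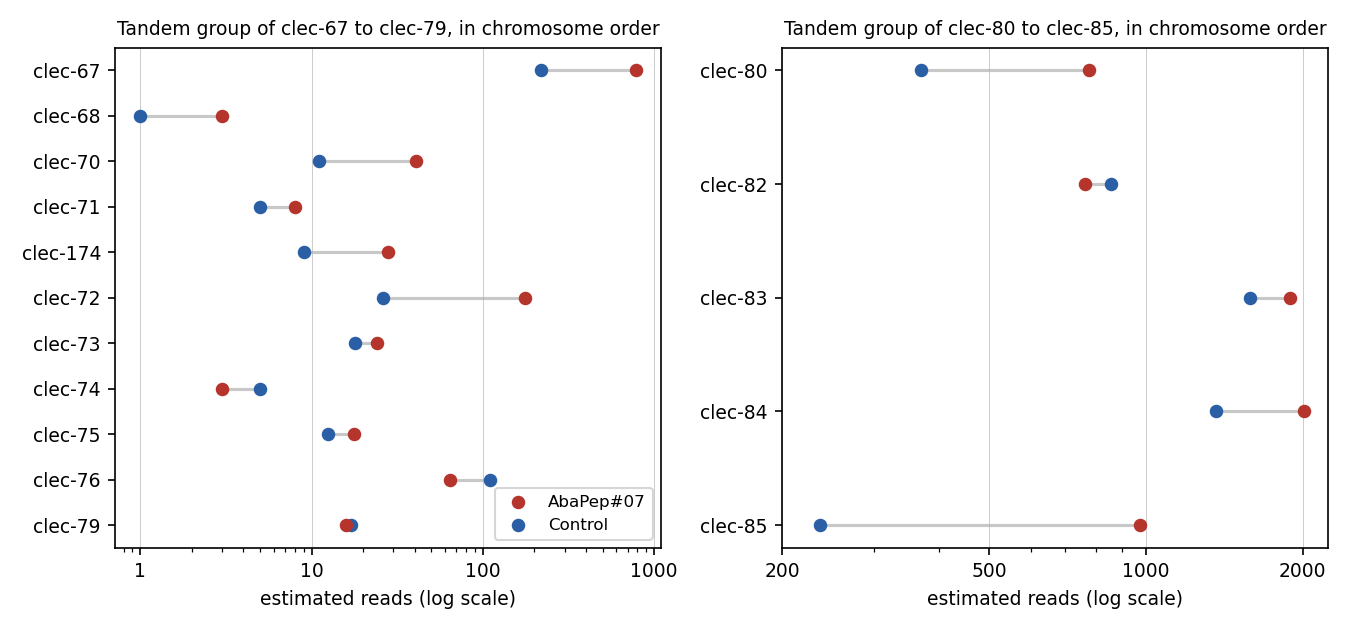
Estimated reads in the AbaPep#07 library (red) and the Control library (blue), 1 library each, on log scales, for the members of 2 tandem groups on chromosome IV in chromosome order. In the left group *clec-67*, *clec-70*, *clec-174* and *clec-72* have clearly more reads in the AbaPep#07 library and *clec-76* fewer, with 64 and 110 reads, and in the right group *clec-85* has the widest gap.

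The remaining tandem neighbours of called genes had too few reads for a narrow ratio. *clec-225*, next to *clec-41*, had 28 reads in the AbaPep#07 library and 29 in Control. Beside *clec-230*, *clec-228* had 9 and 6 reads, *clec-229* had 2 and 4, and *clec-231* had 2 and 0, in the AbaPep#07 and Control libraries. *clec-48*, *clec-49* and *clec-50* on chromosome V, although not all neighbours, have 321 residues and 4 exons each, and all had more reads with the peptide, with log2 FPKM ratios of 1.37, 0.74 and 0.45. Only *clec-48* passed the fold threshold.

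Genes of related domains outside the family were counted by the same rule. Of 33 genes with an annotated lectin fold and another symbol, 5 were called higher (15.2%) and 0 lower, with a median log2 FPKM ratio of 0.43. Of 47 genes with a CUB-like domain, which is a nematode domain distinct from CUB and frequent among pathogen-induced genes, 13 were called higher and 2 lower (31.9% together), with a median of 0.62. The corresponding share for the *clec* genes was 6.16%. None of these shares was tested against another.

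Regulators of immune genes, several of them known to act on *clec* genes, were measured in the same libraries. Of 16 listed genes 15 were measured, and 0 were called in either direction, with log2 FPKM ratios between -0.25 and 0.73 and a median of 0.23. Of all genes 3.53% were called. The share was 6.14% at 1 to 10 Control FPKM, 1.94% at 10 to 100 and 1.32% at 100 or more. At such shares few or none of 15 genes would be called. By the FDR alone *tir-1*, *sek-1*, *vhp-1*, *skn-1*, *elt-2*, *pqm-1*, *zip-2* and *bar-1* were higher with the peptide and *daf-16* was lower. Over all genes 13.1% were higher and 12.4% lower by that measure. The shares were 18% and 19.3% at 10 to 100 Control FPKM, and 23.8% and 36.9% at 100 or more. With many reads small ratios pass, such as the FPKM ratio of 1.04 of *skn-1*. In the p38 pathway, the adaptor *tir-1* had 5741 reads in the AbaPep#07 library and 3595 in Control (0.73), the kinase *nsy-1* had 2393 and 2457 (-0.04) and the kinase *sek-1* had 1801 and 1540 (0.23). The pathway's phosphatase *vhp-1* had a log2 FPKM ratio of 0.45, and its transcription factor *atf-7* had -0.02. Among other transcription factors, *zip-2* had 0.69, the intestinal GATA factor *elt-2* had 0.67, *pqm-1* had 0.41, *skn-1* had 0.06, *hlh-30* had -0.03 and *daf-16* had -0.11. *bar-1*, a beta-catenin needed for *clec-60* induction, had 0.42 and the homeobox gene *egl-5* of the same route had 0.31, while *clec-60* itself stood at -0.81. The receptor *fshr-1* had 0.02 and the ligand *dbl-1* had -0.25. Transcript levels do not measure the activity of kinases or transcription factors.

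In whole animals, fewer cells of a type and less RNA per cell cannot be told apart. The 4 intestinal markers *elt-2*, *ges-1*, *asp-1* and *vit-6* had log2 FPKM ratios of 0.67, 0.31, 0.00 and 0.18. Both body muscle markers (-0.27 and -0.12), the pharynx marker (-0.37), both oocyte markers (-0.32 and -0.17), both germ line markers (-0.42 and -0.35) and both hypodermal markers (-0.63 and -0.13) were below 0. Neuronal markers had -0.40 and 0.15, and those of coelomocytes -0.05 and 0.01. Of the 2 genes listed for the embryo, *end-1* had 5 reads in the AbaPep#07 library and 1 in Control. The other, *pha-4*, had 872 and 699 reads, a log2 FPKM ratio of 0.32. With levels so unlike, the 2 were not taken as a measure of embryos. The 3 sperm markers had at most 26 reads in the AbaPep#07 library and at most 36 in Control, and *spe-11* was called lower. The part of tissue composition in the *clec* ratios was not tested.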

How the data were processed

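Polyadenylated RNA of whole nematodes was sequenced on the BGISEQ-500 in 1 library per condition, both mapped to a group from the labels. The authors cleaned the reads and estimated expression with RSEM (1.2.12) after alignment to the gene set with Bowtie2 (2.2.5), and the submitters' processing notes also name HISAT2 (2.0.4) and the build WBcel235. Their deposited table holds estimated counts per gene, which were rounded down for the test, and the authors' FPKM and TPM values. Deposited columns of the authors' own comparison (log2 ratio, p-value, FDR) were not used. RSEM divides reads among genes of similar sequence, and 19 members had counts that were not whole.

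The Audic-Claverie test was recomputed with Benjamini-Hochberg adjustment over all 18510 genes. Tests that need replicates were not possible. Intervals of read ratios are exact binomial (Clopper-Pearson, 95%). Software was Python 3.11.15, numpy 2.4.6, pandas 2.3.3, scipy 1.17.1, matplotlib 3.10.9, R 4.3.3, edgeR 4.0.16 and DESeq2 1.42.0. Scaling factors for AbaPep#07 and Control were 0.996 and 1.004 by TMM and by DESeq2.

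Domains were read from the table's InterPro column, positions from RefSeq (all 211 members matched), and exons and residues from the Ensembl annotation (209 matched), all on WBcel235. The genes *clec-39* and *pmk-1* were not analysed here. Named genes were the called members, the 10 of highest Control FPKM, members known from infection work, the 5 highest and 5 lowest ratios with at least 100 reads, tandem neighbours of called members and the regulators. *clec-13*, *clec-31*, *clec-51*, *clec-125*, *clec-161*, *clec-197* and *clec-205* were added after their values were seen. The members and lists were chosen with earlier results of these data known.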

Additional observations from a re-analysis of the deposited data

How the results depend on the processing

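With a coefficient of variation of 0.2 assumed in edgeR's exact test, 5 members were called higher in place of 11, losing *clec-266*, *clec-41*, *clec-48*, *clec-70*, *clec-174* and *clec-203*, and with 0.4 the number was 0. The variation between cultures was not measured here. The 2 lower calls became 1 with 1 FPKM added (losing *clec-151*), with at least 20 reads (losing *clec-230*) and among members with whole reads (losing *clec-151*), and 0 with Bonferroni adjustment and with edgeR's exact test at 0.1, 0.2 and 0.4. Under the other alternatives the number of members called higher ranged between 8 and 13. Over all genes annotated with the lectin fold 16 were called higher, of which 5 are not members. Reads scaled by library total, TMM and DESeq2 size factors gave 12 with the gain of *clec-80*, and TPM gave 13 with the further gain of *clec-205*. Adding 1 FPKM lost *clec-70*, *clec-174* and *clec-203*.

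The median log2 ratio of 0.17 was 0.09 with 1 FPKM added and between 0.16 and 0.23 otherwise. The summed abundance ratio of 1.21 was 1.19 by reads, 1.16 by FPKM, 1.2 by TMM, 1.19 by DESeq2, 1.19 among members with whole reads and 1.23 over all genes annotated with the lectin fold. Leaving out *clec-63*, an alternative chosen after seeing the data, left it at 1.21. Counting *clec-13* and *clec-15* once, also chosen after seeing the data, left the family's median at 0.17 and its calls at 11 and 2. Of 230 values of named genes under 5 settings, 222 stayed on their side of the thresholds, 4 lost a call, 4 gained one, all of *clec-80*. The sign changed for *clec-150*, which was not called, at -0.05 by FPKM and 0.01 by TPM. No paired analysis was possible because each condition has 1 library. Precision was limited by depth for the 102 members with fewer than 20 reads.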
